A study of Drosophila erecta with 23 samples.

Results

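Promoter activity late in the embryogenesis of *Drosophila erecta* was compared between 14-17 h and 17-20 h after egg laying. Each window held the 3 libraries collected hour by hour within it, which gave 6 of the 23 libraries of the time series. All 6 were whole, untreated wild-type embryos of the reference genome strain, collected in population cages over 1 h and aged, so that each library pooled many embryos. No hour had a replicate. The hours of a window served as its members, and every p-value below sets the difference between windows against the spread between these hourly libraries, which includes the course of development inside a window. All libraries of the series were barcoded during reverse transcription and then handled as a single pool on one lane, so the labels give no batches.

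RAMPAGE sequences the 5′ ends of complete cDNAs and so places transcription start sites (TSSs) and measures promoter output. Neighbouring TSSs were grouped into transcription start clusters (TSCs), each taken as a promoter, and levels are given as RPM, reads scaled to a common library total. In flies, late embryogenesis is known as the phase in which organs that are already laid out become functional. The epidermis secretes the larval cuticle, the tracheae mature, muscles begin to contract and neurons complete their connections before hatching. The tables identify genes by FlyBase numbers without names, so individual promoters are described by position on the scaffolds of FlyBase release 1.3 and by level, and no function is given to any of them. For the same reason the label of the tissue was not checked against marker genes. In whole embryos, fewer cells of a kind and less RNA per cell cannot be told apart.

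The 6 libraries differed in depth, from 1164803 TSC reads in the shallowest (14-15 h) to 9148162 in the deepest (18-19 h). A single read was worth between 0.109 and 0.859 RPM. At 14-15 h a level of 10 RPM rested on 12 reads (95% Wilson interval 5.89 to 18.0 RPM) and a level of 1000 RPM on 1165 reads (944 to 1059 RPM). These intervals cover counting error only. Neighbouring hours had Spearman correlations of 0.916 to 0.951 across 8948 genes, which are not independent replicates, against 0.757 between 14-15 h and 19-20 h. Each of the 6 libraries was nearest to a library 1 h away.

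Compared with 14-17 h, the main feature of the later window was the concentration of reads in few promoters. The 40 TSCs of highest mean RPM over the 6 libraries held 24.8%, 29.2% and 29.3% of the reads at 14-15, 15-16 and 16-17 h, and 38.4%, 41.4% and 50.7% at 17-18, 18-19 and 19-20 h. The windows did not overlap, with means of 27.8% ± 2.56 and 43.5% ± 6.44 (SD, n = 3 each). The difference of 15.7 percentage points had a two-sided exact permutation p of 0.1, which is the smallest that 3 against 3 libraries can give, and an adjusted p of 0.12 over 6 such comparisons. For the 10 highest TSCs the share went from 15.3% ± 2.68 to 28.4% ± 5.92, again without overlap (n = 3 each, exact p = 0.1). Both sets were ranked on the 6 libraries compared, which can favour TSCs strong in the later window. With the highest TSCs of each library instead, the differences were 15.38 points for 40 TSCs and 11.04 for 10, untested. The shares for 10 were then 17.7%, 19.9% and 20.4% against 24.5%, 28.8% and 37.85%. Not all of the 40 TSCs of highest mean RPM moved in the same way. The 15 whose levels at 17-20 h lay wholly above those at 14-17 h took 0.865%, 2.80% and 2.79% of the reads in the earlier window and 15.2%, 27.9% and 38.9% in the later one. The remaining 25 took 23.97%, 26.4% and 26.5%, then 23.2%, 13.51% and 11.9%. The 15 were picked by their levels, so these shares are a description without a test.

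**Figure D1:**
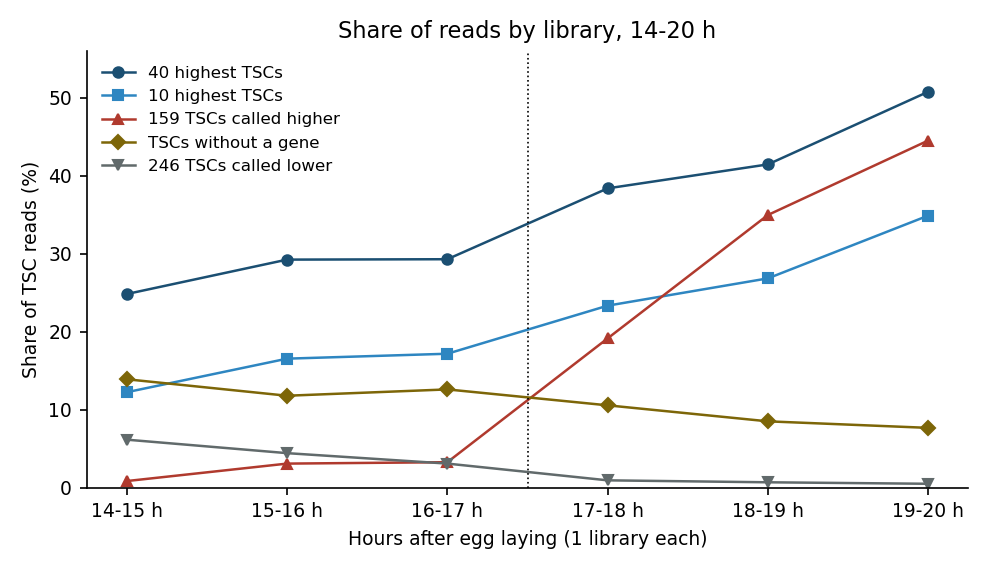
Share of all TSC reads (y axis, %) in each hourly library (x axis) for the 10 and 40 highest TSCs, the TSCs without a gene, and the TSCs called higher or lower at 17-20 h, with the dotted line between the windows. The 40 highest TSCs went from 24.8% at 14-15 h to 50.7% at 19-20 h, and the 159 TSCs called higher went from 0.868% to 44.5%.

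Because RPM are shares of a total, a rise of a few strong promoters lowers the RPM of all others. Over all 6780 genes tested, the median log2 difference between windows was -0.66 in the deposited RPM. It was -0.35 after the reads of the 40 highest TSCs were left out of the library total, and -0.06 with TMM factors, a scaling that centres the bulk of the genes. For TSCs the same medians were -0.64, -0.32 and -0.07. The total counts of called genes and TSCs are therefore given below on all 3 scalings. Other comparisons are in the deposited RPM unless another scaling is named.

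The number of genes detected depended on the level asked for. Genes at 2 RPM or more numbered 7152, 7382 and 7508 in the earlier window and 6910, 7278 and 6827 in the later one. The windows overlapped, and the difference of 342 genes had an exact permutation p of 0.2 (n = 3 each). At 10 RPM or more the windows separated, with 5239, 5128 and 5238 genes against 4718, 4649 and 4196. With the 40 highest TSCs left out of the total, the counts at 2 RPM were 7541, 7656 and 7812 against 7650, 7732 and 7623, and the window means were nearly equal. At 14-15, 17-18 and 19-20 h, the shallowest libraries, these counts equalled those at 1 RPM or more in the deposited RPM. The limit there fell to very few reads, and the near equality of the means rests on it. The genes in the gene table held 81.9% ± 0.581 of the reads at 14-17 h and 67.6% ± 6.17 at 17-20 h (n = 3 each, exact p = 0.1), so more of the later reads lay in promoters outside that table. TSCs assigned to no gene fell in share meanwhile, from 12.8% to 8.92%, so this gain lay mostly in TSCs that have a gene. The calls of genes below leave these reads out, while those of TSCs include them.

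The 10 highest TSCs followed distinct courses. In what follows, 6 levels in RPM are given in order of hour, the first 3 from 14-17 h and the last 3 from 17-20 h. The highest TSC, at scaffold 4784:8824985-8825378 on the minus strand, stood at 1714, 7830, 9426, 41153, 73941 and 105899 RPM. Every later library exceeded every earlier one. Its mean rose 11.7-fold (limma on log2(RPM + 1), log2 difference 3.77, SE 0.74, adjusted p = 0.042). The adjusted p was 0.052 with the 40 highest TSCs left out of the total and 0.046 with TMM factors. Its level was highest of all 23 libraries at 21-22 h.

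Neighbours of this promoter were also higher in every later library than in any earlier one. A TSC at 4784:8822442-8822606 on the minus strand stood at 789.8, 5643, 4270, 23346, 40650 and 78874 RPM, without overlap (log2 difference 3.98, SE 0.81, limma adjusted p = 0.043). It missed the limit on the other scalings (adjusted p = 0.055 without the 40 highest TSCs and 0.051 with TMM factors). Another at 4784:8826975-8827189, also on the minus strand, stood at 455, 1661, 1777, 9969, 44860 and 30164 RPM. It was the steepest of the 10, with a 21.8-fold higher mean, and the only one of the 10 called on all 3 scalings (log2 difference 4.43, SE 0.73, limma adjusted p = 0.033, 0.038 and 0.032). Elsewhere, a TSC at 4845:18622701-18623082 on the plus strand stood at 722.9, 2553, 1932, 8482, 20415 and 39923 RPM. One at 4784:20969991-20970138 on the plus strand stood at 686.8, 2518, 2340, 9309, 16862 and 34330 RPM. Both windows were separate for each of them, and each was called in the deposited RPM (limma adjusted p = 0.042 for both) and missed the limit without the 40 highest TSCs (0.052 for both). With TMM factors both were called (limma adjusted p = 0.0445 and 0.0456).

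The other five of the 10 were not called. The TSC at 4845:17530105-17530218 on the minus strand was the second highest, at 19299, 53028, 49163, 40089, 18567 and 1579 RPM. It was highest at 15-16 h of all 23 libraries, and its windows overlapped because 17-18 h was still above 14-15 h (log2 difference -1.81, SE 1.12, limma adjusted p = 0.26). The TSC at 4770:2184876-2184996 on the minus strand stood at 13851, 19029, 36459, 47565, 8292 and 2906 RPM. Its level climbed across the boundary between the windows and dropped within the later one, so a comparison of window means did not resolve it (adjusted p = 0.44). Levels at 4929:6490564-6490971 on the minus strand were 33027, 28392, 21500, 13985, 16994 and 25261 RPM, and those at 4784:212298-212329 on the plus strand were 18498, 11919, 9397, 13568, 5929 and 8580 RPM. Neither showed a difference beyond the spread between hours (adjusted p = 0.37 and 0.44). The remaining one, the highest TSC that was assigned to no gene, is described with the TSCs of its kind.

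**Figure D2:**
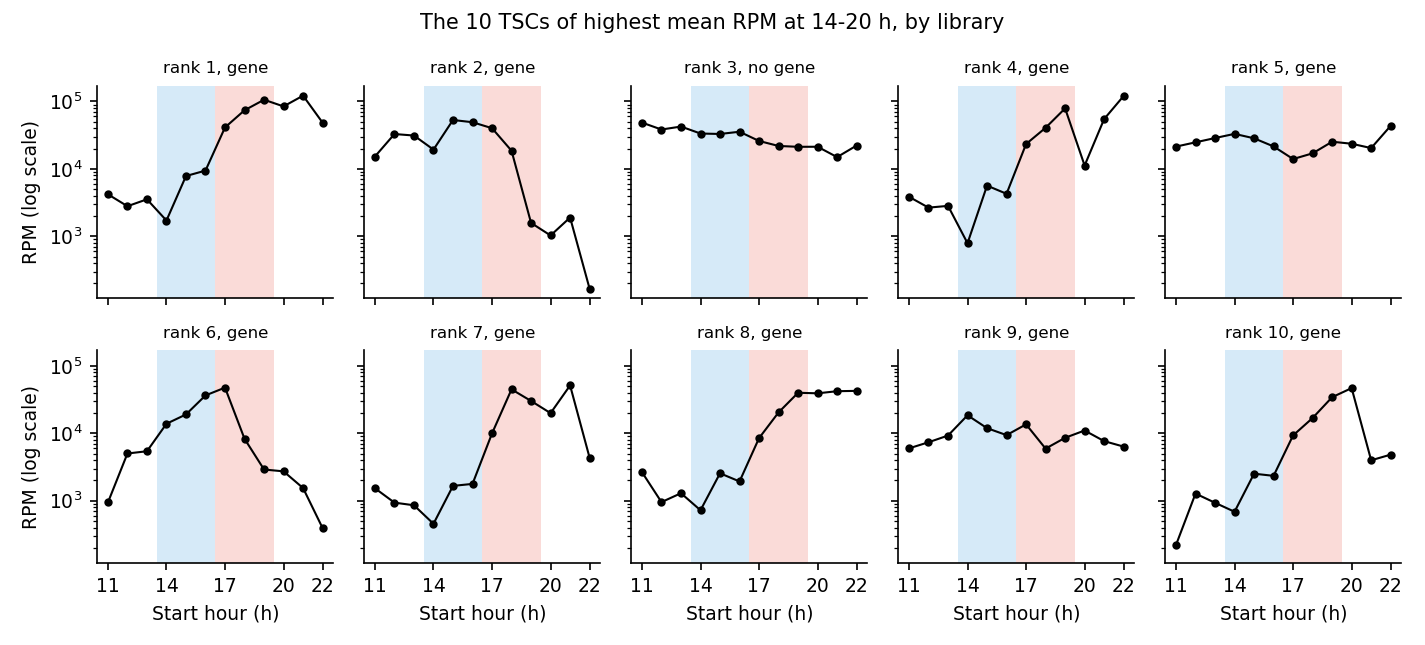
RPM (log scale, y axis) of the 10 TSCs of highest mean level against the start hour of each library from 11 to 22 h, with 14-17 h shaded blue and 17-20 h shaded red and each panel stating whether the TSC has a gene. Ranks 1, 4, 7, 8 and 10 are higher in every library of 17-20 h than in any of 14-17 h, whereas ranks 2 and 6 peak at 15-16 h and 17-18 h and then drop.

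Of 6780 genes tested, 103 were called higher at 17-20 h (1.52%) and 266 lower (3.92%) in the deposited RPM (limma on log2(RPM + 1), Benjamini-Hochberg adjusted p under 0.05). With the 40 highest TSCs left out of the total, 48 were called higher (0.708%) and 18 lower (0.265%). With TMM factors, 92 were higher (1.36%) and 16 lower (0.236%). The share of calls that were higher thus turned from 27.9% to 72.7% and 85.2%, so the majority direction among called genes turned with the scaling. On all 3 scalings, 47 genes were called higher (0.693%) and 15 lower (0.221%). That intersection was chosen after the scalings had been compared. Without regard to the test, 418 genes had all later levels above all earlier ones (6.17%) and 2719 had them below (40.1%) in the deposited RPM. On TMM factors these numbers were 942 and 1019.

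TSCs behaved alike. Of 9558 tested, 159 were called higher (1.66%) and 246 lower (2.57%) in the deposited RPM. The numbers were 88 higher (0.921%) and 35 lower (0.366%) without the 40 highest TSCs, and 161 higher (1.68%) and 35 lower (0.366%) with TMM factors. On all 3 scalings, 86 TSCs were higher (0.9%) and 31 lower (0.324%). In the deposited RPM, 651 TSCs lay wholly above (6.81%) and 3502 wholly below (36.6%). On TMM factors, 1324 lay wholly above and 1404 wholly below. Among the 40 highest TSCs, 13 were called higher and 1 lower.

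**Figure D3:**
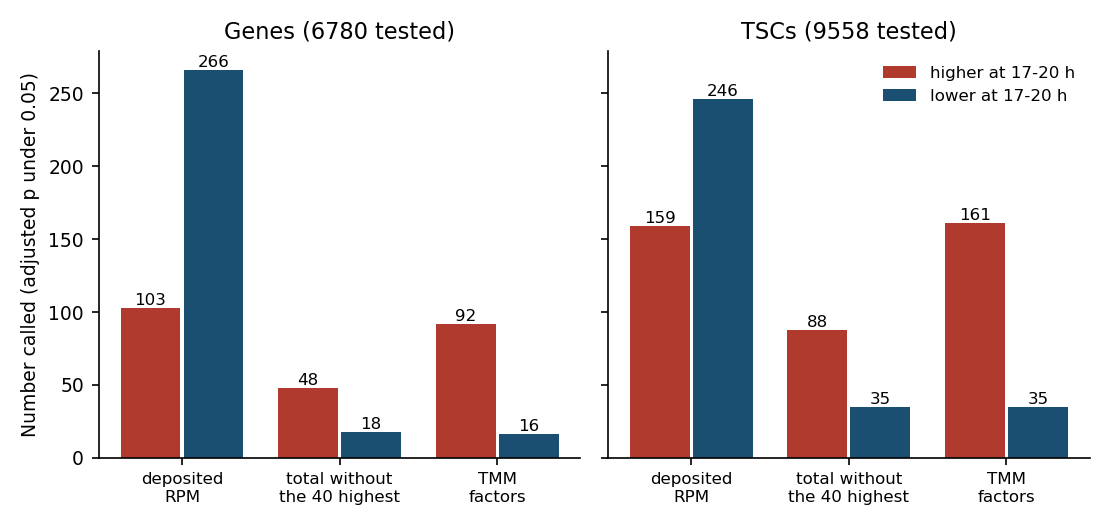
Number of genes (left) and TSCs (right) called higher (red) or lower (blue) at 17-20 h at an adjusted p under 0.05, on the 3 scalings of the library total. Lower calls go from 266 to 18 and 16 genes and from 246 to 35 and 35 TSCs on the other scalings, where higher calls are the majority.

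The adjusted p-values lay close to the limit, with a smallest value of 0.035 for genes and 0.015 for TSCs. At an unadjusted p under 0.05, 2588 genes and 3359 TSCs passed. Leaving out a single library decided the calls. Limma called no gene without 14-15, 15-16, 18-19 or 19-20 h, where 1817 to 2075 genes kept an unadjusted p under 0.05, but called 145 genes without 16-17 h and 1146 without 17-18 h. For TSCs the numbers were 0 without 14-15, 15-16 or 18-19 h (2238 to 2431 at an unadjusted p under 0.05), 8 without 19-20 h, 251 without 16-17 h and 1410 without 17-18 h. The edgeR quasi-likelihood test on whole reads called 225 genes by library total and 42 with TMM factors, and DESeq2 called 668. Individual promoters are therefore given below with their level in every library.

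Among the genes called higher, 68 did not overlap between windows and had a mean of at least 50 RPM at 17-20 h, and the 15 largest rises were followed up. Their mean levels rose 14.3-fold to 38.3-fold, with log2 differences of 4.35 to 5.46 and limma adjusted p-values of 0.035 to 0.048. Of the 15, 10 were also called without the 40 highest TSCs and 12 with TMM factors. All 15 could be placed on the genome by identical reads in the gene and TSC tables, each with a single TSC. The largest rise, that of the gene listed as FBgn0035737, started at 4784:4262100-4262148 on the minus strand. Its levels were 5.12, 8.04, 74.3, 351.9, 1230 and 815.4 RPM, so that the lowest later library stood well above the highest earlier one (log2 difference 5.46, SE 0.91, adjusted p = 0.036, and 0.045 without the 40 highest TSCs). The gene listed as FBgn0037122, at 4784:21381412-21381514 on the minus strand, stood at 4.26, 4.29, 17.6, 212.4, 464.4 and 205.7 RPM. It was highest at 18-19 h of all 23 libraries, and by 20-21 h it was back at 86.9 RPM (log2 difference 5.09, SE 0.57, adjusted p = 0.035, and 0.033 without the 40 highest TSCs).

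The other 13 differed in their course. A gene at 4845:12806544-12806744 on the minus strand, the most abundant of the 15 at 17-20 h, stood at 229.4, 418.4, 415, 6217, 5345 and 13631 RPM. Its level at 14-15 h was the lowest of the earlier 3, and it stepped up between 16-17 and 17-18 h. A gene at 4770:2760604-2760671 on the minus strand likewise stayed low at 4.26, 6.70 and 7.46 RPM and then reached 109.3, 437.4 and 157.8 RPM, which made its mean 38.3-fold higher. A gene at 4784:17279294-17279375 on the plus strand rose throughout instead, at 3.41, 35.6, 62.8, 253.3, 914.1 and 1439 RPM. Its early levels were spread over the hours, and it lost its call without the 40 highest TSCs (limma adjusted p = 0.043 and 0.066). A gene at 4784:18501724-18501816 on the plus strand was listed at 0 at 14-15 h, where 3 reads would be 2.58 RPM, and at 4.02 and 6.39 RPM in the next hours. It then stood at 27.7, 194.7 and 149.6 RPM (adjusted p = 0.042, 0.058 without the 40 highest TSCs and 0.047 with TMM factors). Of the 15 rises, 13 had their highest level of all 23 libraries at 17-20 h and 2 at 20-23 h.

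Among the genes called lower, 155 did not overlap and had a mean of at least 50 RPM at 14-17 h. The 15 largest falls had log2 differences between -3.82 and -5.31 and mean levels 8.81-fold to 36.0-fold lower (limma adjusted p = 0.035 to 0.050). Only 2 of the 15 were called without the 40 highest TSCs and 2 with TMM factors, against 10 and 12 of the rises. The largest fall, that of the gene listed as FBgn0053003 at 4929:4483253-4483283 on the plus strand, went through 406.7, 147.3, 39.0, 15.1 and 1.40 RPM to a listed 0 at 19-20 h. From 14-15 h on it dropped in every hour, so a large part of the fall lay inside the earlier window (log2 difference -5.31, SE 1.11, adjusted p = 0.046, and 0.078 without the 40 highest TSCs). At 11-12, 12-13 and 13-14 h it had stood at 20.3, 98.9 and 6.48 RPM, so its high start rests on the shallow 14-15 h library and the hour after it. The gene listed as FBgn0036351, at 4784:13386557-13386730 on the minus strand, stood at 2018, 2378 and 1683 RPM and then at 266.5, 122.6 and 69.6 RPM. Its levels were steady within 14-17 h and all later libraries lay far below them (log2 difference -3.92, SE 0.49, adjusted p = 0.035, and 0.041 without the 40 highest TSCs). The most abundant of the 15 went through 17544, 7825, 2669, 624, 242.5 and 54.4 RPM. It lost more than 100-fold over the 6 hours and dropped in every hour. The drop at the boundary, from 2669 to 624 RPM, was about as steep as the last one, from 242.5 to 54.4 RPM. This gene was called only in the deposited RPM (adjusted p = 0.041, and 0.057 without the 40 highest TSCs). Of the 15 falls, 13 had their highest level of all 23 libraries at 14-17 h and 2 at 11-14 h.

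The called TSCs were next followed over the neighbouring hours. The median level of the 159 higher TSCs was 4.29, 8.91 and 15.5 RPM at 14-15, 15-16 and 16-17 h, and 61.4, 125.8 and 116.7 RPM from 17-18 h to 19-20 h. It then stayed at 119.2, 100.1 and 68.2 RPM in the last 3 libraries. There these TSCs together still held 38.05%, 43.02% and 31.81% of the reads, so the concentration was not particular to 17-20 h. Earlier in the series the median of these TSCs was 20.3 RPM at 4-5 h and 11.6 RPM at 5-6 h. It was at most 2.74 RPM in the other hours before 11 h, and the cause of this was not tested. The 246 lower TSCs had medians of 75.5, 60.1 and 49.4 RPM and then 15.2, 12.6 and 9.53 RPM, after which they stayed between 7.42 and 9.14 RPM. Of these, 116 of the 159 higher TSCs (73.0%) made their largest hourly rise and 210 of the 246 lower TSCs (85.4%) their largest hourly drop between 16-17 and 17-18 h. That step is the boundary of the windows, and TSCs with a step there are the ones the comparison favours. Over all 9558 tested TSCs, 17.3% made their largest rise and 31.7% their largest drop there, and their median step there, -0.37 on the log2 scale, was the lowest of the 5. Among the higher TSCs, 42 rose in every one of the 5 steps, or 26.4% against 1.51% of all tested TSCs. Among the lower TSCs 58 fell in every step, or 23.6% against 5.27%. On all 3 scalings, 12 of the 86 higher TSCs rose and 13 of the 31 lower TSCs fell in every step. These steps use the same levels as the calls, so the shares are a description without a test.

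The hour of the highest level was set against that of all tested TSCs. Calling a TSC higher at 17-20 h than at 14-17 h favours a late highest level, and calling it lower an earlier one. The shares are therefore a description without a test. The highest of 23 libraries fell in 17-20 h for 84 of the 159 higher TSCs and in 20-23 h for the other 75, compared with 8.36% and 10.7% of all tested TSCs. For the 246 lower TSCs it fell before 11 h for 90 (36.6%), in 11-14 h for 69 (28.1%) and in 14-17 h for 87 (35.4%). Over all tested TSCs these shares were 54.7%, 12.5% and 13.8%, and over the 31 lower on all 3 scalings 12.9%, 38.7% and 48.4%. The hours before 11 h include the 7-8 h library of only 142224 reads, where a single read was worth 7.03 RPM. Between 18-19 and 19-20 h, 71 of the 159 higher TSCs (44.7%) and 51 of the 86 higher on all 3 scalings (59.3%) were already lower again, compared with 66.9% of all tested.

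**Figure D4:**
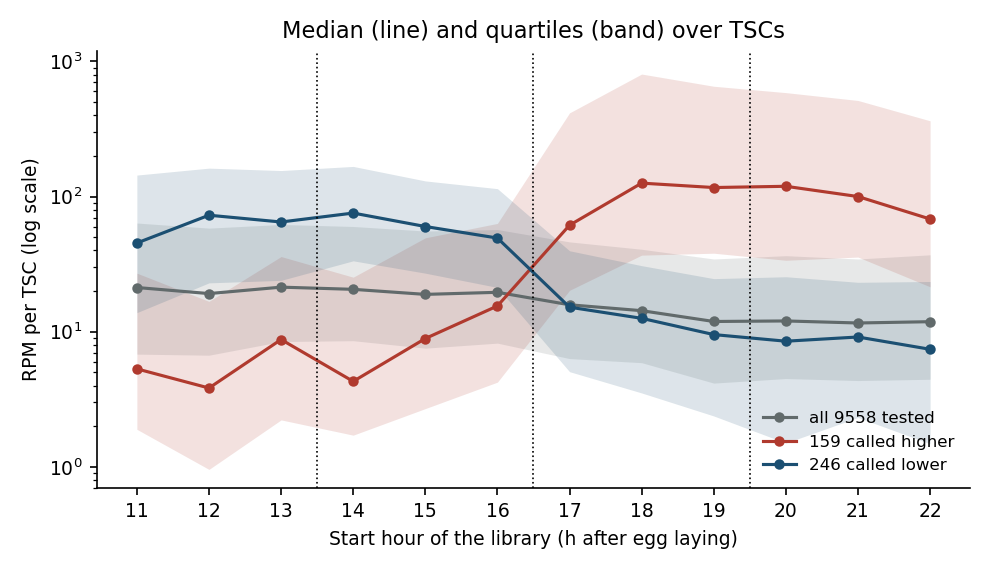
Median (line) and quartiles (band) of RPM on a log scale (y axis) against the start hour of the library (x axis) for all 9558 tested TSCs, the 159 called higher and the 246 called lower, with dotted lines at the window boundaries. The higher TSCs go from a median of 15.5 RPM at 16-17 h to 61.4 RPM at 17-18 h and the lower ones from 49.4 to 15.2 RPM, while the median of all tested TSCs goes from 19.6 to 15.8 RPM.

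The higher TSCs lay close together on the genome. A chain of called TSCs was defined, after the positions had been seen, as neighbours of different genes, or without a gene, no more than 20 kb apart. The table lists 161 positions under more than 1 gene, with the same reads each time, and a repeat of a position was not counted as a neighbour. One higher TSC is such a repeat, so that 158 of the 159 are distinct. Of the 159 higher TSCs, 68 (42.8%) had another higher TSC of this kind within 20 kb, while 5.62% of all tested TSCs lay as near to one. Of the 246 lower TSCs, 43 (17.5%) had such a lower neighbour, against 10.9% of all tested TSCs. On all 3 scalings, 40 of the 86 higher TSCs (46.5%) and 4 of the 31 lower ones (12.9%) had such a neighbour, against 3.34% and 0.921% of all tested TSCs. Scaffold 4784 held 60 of the 159 higher TSCs, or 3.11% of the 1929 TSCs tested on it, compared with 0.740% to 1.63% on the other 5 scaffolds with at least 821 tested TSCs. Lower TSCs ranged from 2.14% to 3.05% over the same 6 scaffolds. Whether near-identical gene copies in such chains share reads was not tested.

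The chain with the highest level was that of the strongest promoter, at 4784:8822442-8842128. It spanned 19.7 kb with 11 tested TSCs, of which 7 were called higher, all on the minus strand, and 3 of these on all 3 scalings. Together these 11 TSCs held 0.320%, 1.62% and 1.66% of all reads in the earlier window and 7.84%, 17.0% and 23.3% in the later one. Besides the 3 TSCs among the 10 highest, it held a TSC at 8837665-8837805 with 188, 905.3, 646.3, 3223, 9449 and 14670 RPM. The chain also held a TSC of no gene at 8842051-8842128, which was listed at 0 at 14-15 and 15-16 h and stood at 0.955, 29.8, 18.2 and 15.5 RPM from 16-17 h on (limma adjusted p = 0.023). The 4 TSCs that were not called included all 3 on the plus strand. They had log2 differences of 2.04 to 3.52, also upward, with adjusted p-values of 0.064 to 0.21.

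Other chains were weaker but more uniform. At 4784:19264916-19273778, all 6 tested TSCs within 8.86 kb were called higher on all 3 scalings, 4 on the minus and 2 on the plus strand, each assigned to its own gene. Their summed levels were 68.7, 97.7, 133.6, 1123, 4242 and 874.3 RPM. All 6 were highest of the 23 libraries at 18-19 h, and at 20-21 h their sum was 605.3 RPM. The strongest of them, at 19264916-19265040, stood at 54.1, 76.1, 57.9, 521.2, 2668 and 444.3 RPM. At 4784:18501724-18509602, all 4 tested TSCs were called higher, 3 of them on all 3 scalings, and all 4 were on the plus strand. Their summed levels were 76.4, 317.8, 460.3, 2817, 9061 and 10981 RPM and stayed at 13282 RPM at 20-21 h, so this chain did not share the early drop of the one before. At 4845:12794794-12806744, the 4 tested TSCs, all called higher and 3 on all 3 scalings, summed to 663.6, 1841, 622.6, 13726, 18354 and 38044 RPM, and remained at 39469 RPM at 21-22 h.

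The longest chain by number of calls lay at 4784:18531257-18563742, with 9 of 11 tested TSCs called higher over 32.5 kb on both strands, 4 of them on all 3 scalings. The called TSCs summed to 399.2, 997.9, 2075, 10308, 19192 and 14614 RPM. Its strongest member, at 18541669-18541846 on the minus strand, stood at 224.1, 537.8, 1293, 5704, 9710 and 11150 RPM and was called on all 3 scalings (limma adjusted p = 0.032 in the deposited RPM). An uncalled pair in the same stretch, at 18557068-18557222 and 18557465-18557500, was low at 19-20 h and higher again afterwards. The first went through 41.2, 136.6, 547.6, 2324, 5362 and 191.2 RPM (adjusted p = 0.12) and the other, on the opposite strand, through 54.1, 118, 374.2, 1492, 3003 and 404.4 RPM (adjusted p = 0.064). At 20-21 and 21-22 h the first was back at 1785 and 2494 RPM and the other at 2368 and 3064 RPM. Chains of lower TSCs held fewer calls. The largest, at 4770:2347681-2386090, spanned 38.4 kb with 5 of 13 tested TSCs called lower, and none of the 5 was called on all 3 scalings. At 4784:13386557-13390043, the 3 tested TSCs summed to 3566, 3117, 2080, 405.9, 167.2 and 88.2 RPM, and all 3 were called lower, 1 of them on all 3 scalings. At 4845:5753231-5766624, the 3 tested TSCs, none with a gene, summed to 730.6, 930.4, 832.9, 247, 84.9 and 83.4 RPM and were also all called lower, again 1 of them on all 3 scalings.

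Some promoters were active over only a few hours around the boundary. A pulse was defined, after the values had been seen, as a level of at least 1000 RPM, highest at 15-19 h, and at least 10 times every level at 11-14 h and at 20-23 h. There were 8 such TSCs, of which 7 were highest at 17-18 h, and none was called (limma adjusted p = 0.065 to 0.81). Of all 9558 tested TSCs, only 159 (1.66%) were called higher and 246 (2.57%) lower. The rule also asks for a drop by 20-23 h, which can widen the spread within 17-20 h. The absence of calls is therefore no result about these TSCs. The strongest, at 4770:430796-431187 on the plus strand, stood at 346.8, 5345, 5386, 6022, 1130 and 131 RPM, after 18.97, 138.9 and 396.5 RPM at 11-14 h. The next, at 4929:16782513-16782568 on the minus strand, stood at 824.2, 1757, 3061, 5611, 1369 and 276.3 RPM. In both, the level within 17-20 h changed more than 20-fold, which is more than the difference between the windows. A neighbouring pair on the minus strand, at 4784:18517831-18518031 and 18519777-18519805, went through 170.8, 664.7, 2082, 4270, 3361 and 115.5 RPM and through 40.4, 136.6, 370.1, 1460, 602.7 and 50.0 RPM. The only pulse with separate windows, at 4845:18043308-18043412 on the plus strand, stood at 53.2, 213.8, 361.3, 4202, 2853 and 437.7 RPM (adjusted p = 0.065). Close to this class, a TSC at 4845:3264410-3264583 on the plus strand stood at 320.2, 444.7, 1108, 19044, 18570 and 2071 RPM. It was called higher in the deposited RPM (log2 difference 4.06, limma adjusted p = 0.048) and with TMM factors (0.043), but not without the 40 highest TSCs (0.052).

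Called TSCs were narrower when higher. Among TSCs with a mean of at least 50 RPM in either window, the 104 higher ones had a median width of 74 bp (quartiles 31.8 and 134 bp). The 140 lower ones had a median of 106 bp (68.3 and 140 bp), and all 2954 had a median of 118 bp (88 and 162 bp). Of the higher TSCs 9 were under 20 bp wide, of the lower ones 1 and of all 59. The median level of the higher TSCs, 308.7 RPM, was above that of the lower ones, 125.2 RPM, and of all, 121.2 RPM. These TSCs were chosen by their levels, and the clusters themselves were drawn from reads pooled over all 23 libraries, so the widths are a description without a test.

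TSCs assigned to no annotated gene lost share. They held 13.9%, 11.8% and 12.6% of the reads at 14-17 h and 10.6%, 8.52% and 7.68% at 17-20 h. The windows did not overlap (12.8% ± 1.07 against 8.92% ± 1.49, n = 3 each, exact permutation p = 0.1). With the 40 highest TSCs left out of the total, the shares were 14.1%, 12.0% and 12.8% against 13.0%, 10.8% and 11.3%, and the windows overlapped. A single TSC made up a large part of this class. At 4690:852314-852345 on the minus strand, it stood at 33423, 32923, 35517, 25918, 21855 and 21235 RPM and was highest of the 23 libraries at 6-7 h. Its later levels all lay below the earlier ones, but it was not called (log2 difference -0.57, SE 0.43, limma adjusted p = 0.35, and 0.78 without the 40 highest TSCs). The nearest TSC with a gene lay 27.6 kb away on the same strand and had at most 7.73 RPM in these libraries.

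Of the 1814 tested TSCs without a gene, 29 (1.60%) were called higher and 57 (3.14%) lower. Of the 7744 with a gene, 130 (1.68%) and 189 (2.44%) were. By the named limits, the largest rise without a gene was at 4784:16241661-16241732 on the plus strand, with 0.859, 0.540, 2.03, 29.1, 61.2 and 64.9 RPM (log2 difference 4.60, SE 0.46, limma adjusted p = 0.019, and 0.022 without the 40 highest TSCs). The nearest gene TSC, 2318 bp away on the same strand, did not follow it, with 81.6, 78.3, 79.5, 42.4, 44.2 and 26.2 RPM (log2 difference -1.10, adjusted p = 0.071). The most abundant rise was at 4845:19908879-19909148 on the plus strand, with 58.4, 97.2, 373.9, 1250, 1547 and 2094 RPM (log2 difference 3.62, SE 0.64, adjusted p = 0.035, and 0.041 without the 40 highest TSCs). Its nearest gene TSC lay 5146 bp away on the same strand and stayed between 0.859 and 13.0 RPM. A rise at 4784:21033374-21033480 on the plus strand, at 17.2, 49.7, 25.7, 139.3, 191.5 and 206.1 RPM, was the one whose nearest gene TSC was also called higher. That one lay 15.2 kb away on the opposite strand, at 0.859, 3.24, 1.79, 23.4, 83.0 and 63.1 RPM (adjusted p = 0.029).

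Falls without a gene were led by a TSC at 4820:607410-607578 on the minus strand, with 181.1, 126.1, 61.8, 14.6, 4.70 and 1.79 RPM. It dropped in every hour and was called on all 3 scalings (log2 difference -4.17, SE 0.66, limma adjusted p = 0.032, 0.039 and 0.036). The most abundant, at 4784:7024430-7024638 on the minus strand, stood at 1702, 2849, 2286, 544, 153.5 and 45.9 RPM. It was called in the deposited RPM and not without the 40 highest TSCs (adjusted p = 0.044 and 0.064). Its nearest gene TSC, 5954 bp away on the opposite strand, was also called lower, at 47.2, 31.3, 34.5, 13.3, 11.3 and 6.55 RPM. A TSC at 4644:1857068-1857108 on the plus strand stood at 339.1, 206.5, 111.3, 25.3, 12.6 and 7.15 RPM and was called on all 3 scalings (adjusted p = 0.029, 0.037 and 0.030).

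Genes with more than 1 promoter could also change which one they used. This ratio is taken inside each library, so it depends on the total only through the 1 RPM added to each TSC, which matters at low levels. It was not recomputed on the other scalings. For 416 genes with at least 20 reads of the pair in every library and at least 10% of them in the second TSC, the balance of the 2 strongest TSCs was compared. The balance was called changed in 7 genes (1.68%; limma on the log2 ratio, adjusted p under 0.05), and 80 had an unadjusted p under 0.05. The stronger TSC gained in 6 of the 7, but it was ranked on reads that include 17-20 h, so that direction is partly a product of the ranking. With a slope over the start hours 16 of 42 calls, and at a pseudocount of 5 9 of 16, were toward the stronger TSC. The number of calls was 0 without 15-16, 18-19 or 19-20 h (50 to 67 at an unadjusted p under 0.05), 1 without 14-15 h, 3 without 16-17 h and 13 without 17-18 h. It was also 0 with a pseudocount of 0.1 (72 at an unadjusted p under 0.05).

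The largest change was at a gene on scaffold 4770, minus strand, whose TSCs at 8424101-8424127 and 8418212-8418299 lie 5858 bp apart. The share of the first TSC in the reads of the pair was 15.0% (3 of 20 reads, 95% Wilson interval 5.24% to 36.0%), 37.9% and 55.4% at 14-17 h and 93.1%, 93.3% and 95.8% at 17-20 h. Its own level went from 2.58, 8.91 and 18.3 RPM to 60.2, 78.6 and 67.3 RPM, while the second TSC went from 14.6, 14.6 and 14.7 RPM to 4.43, 5.68 and 2.98 RPM. The balance turned over between the windows (log2 ratio difference 4.55, SE 0.62, limma adjusted p = 0.026). The first TSC is listed under a second gene as well, with the same reads, so its reads cannot be given to this gene alone. At a second gene, on scaffold 4845, plus strand, the TSC at 21178408-21178541 held 15.0%, 13.1% and 17.9% of the reads shared with that at 21175442-21175981, and then 58.3%, 79.1% and 92.6%. The change began after 16-17 h and went on through the later window (log2 ratio difference 4.20, SE 0.70, adjusted p = 0.037).

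The one change against the stronger TSC was on scaffold 4929, minus strand, where the share of 15382567-15382651 against 15380579-15380731 went from 95.9%, 91.5% and 82.0% to 55.3%, 39.2% and 37.2%. There the second TSC rose from 1.72, 3.78 and 12.9 RPM to 26.6, 29.5 and 32.2 RPM (log2 ratio difference -3.39, SE 0.56, limma adjusted p = 0.037). On scaffold 4845, plus strand, the share of 9443775-9443841 against 9442841-9442950 went from 31.8%, 40.6% and 61.8% to 82.4%, 90.9% and 87.1% (log2 ratio difference 2.92, SE 0.54, adjusted p = 0.037). On scaffold 4929, plus strand, that of 16356689-16356783 against 16360117-16360329 went from 61.8%, 48.6% and 40.5% to 86.3%, 92.4% and 83.9% (log2 ratio difference 2.78, SE 0.50, adjusted p = 0.037). In this last gene the share fell within 14-17 h before it stepped up. The shares in the 2 windows did not overlap in any of the 5. These genes were picked by this same difference, so the separation follows largely from the choice.

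**Figure D5:**
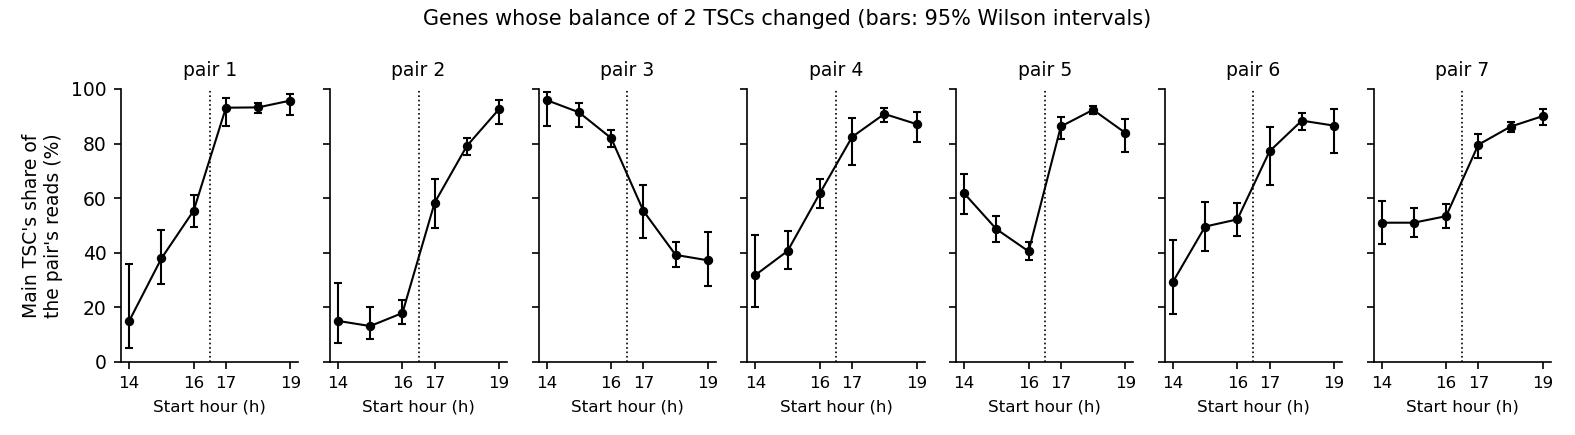
Share of the stronger TSC in the reads of a gene's 2 strongest TSCs (y axis, %) against the start hour of the library (x axis), for the 7 genes called, with 95% Wilson intervals that cover counting error only and a dotted line between the windows. In pairs 1 to 5, described in the text in that order, the share goes for example from 55.4% at 16-17 h to 93.1% at 17-18 h in pair 1 and from 82.0% to 55.3% in pair 3.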

How the data were processed

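The authors mapped RAMPAGE read pairs to FlyBase release 1.3 with STAR (version not given in the sources used here), called TSCs on the reads pooled over the series and removed those on rDNA. Both tables were deposited as RPM, reads scaled to a common library total, for TSCs and for genes listed by *D. melanogaster* identifiers. A deposited table of aligned scores and a score given with the TSC positions were not used. The comparison and all rules were chosen with earlier results of these data known.

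Every RPM value above 0 was a whole number of reads within 0.1 (100% of 185320 gene and 379172 TSC values). Features passing filterByExpr (minimum count 10) were tested with limma 3.58.1 (trend) on log2(RPM + 1), which understates changes of low features, over the 6 libraries, with calls made below a Benjamini-Hochberg adjusted p of 0.05. On the recovered reads, edgeR 4.0.16 called 225 genes and DESeq2 1.42.0 called 668. The total was recomputed without the 40 TSCs of highest mean RPM, and with TMM factors. Single values per library were compared by two-sided exact permutation tests (scipy 1.17.1). Named genes were the 15 largest rises and falls among called genes without overlap and with at least 50 RPM in the higher window; named TSCs were the 10 highest, the 5 largest rises and falls without a gene by the same limits, and 5 promoter pairs. Other features named were chosen after their values were seen. The identifiers come without names, so gene lists, markers and promoter letters were not used here. Of the TSC rows, 330 repeat 161 positions under several genes, which counts 0.370% to 0.812% of the reads of these libraries again. Gene positions came from identical reads in all 23 libraries (5612 of 8948 genes). On counts simulated from the means and totals of these libraries, limma recovered 91 of 100 genes changed by a log2 of 2. It recovered 100 of 100 changed by 4, and called 8 unchanged genes among 6628. The simulation gave every gene the same scatter and no course of time inside a window. These numbers are therefore not the power of the real comparison.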

Additional observations from a re-analysis of the deposited data

How the results depend on the processing

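The counts of calls depended on the processing more than the levels did. Against 369 genes and 405 TSCs called in the deposited RPM, the counts were 66 and 123 without the 40 highest TSCs in the total, 108 and 196 with TMM factors, 225 and 169 with edgeR by library total, 42 and 152 with edgeR and TMM factors, 668 and 986 with DESeq2, 0 and 95 at a pseudocount of 0.1, 889 and 765 at 5, 140 and 132 with no filter, and 2197 and 2798 with a slope over the start hours. At an adjusted p under 0.01 limma called none (2588 genes and 3359 TSCs at an unadjusted p under 0.05), and at a pseudocount of 0.1 limma left 2496 genes at that unadjusted limit. Leaving out 1 library gave 0 to 1146 genes and 0 to 1410 TSCs.

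The share of called genes that were higher, 27.9%, was 72.7% without the 40 highest TSCs, 85.2% with TMM factors, 36.9% and 88.1% with edgeR by total and with TMM factors, 77.4% with DESeq2, 21.0% at a pseudocount of 5, 43.6% with no filter, 19.2% with the slope and 22.5% to 66.2% without 1 library. For TSCs, 39.3% became 71.5%, 82.1%, 49.7%, 82.2%, 76.1%, 31.1%, 55.3% and 23.0% under the same settings in that order, 50.5% at a pseudocount of 0.1, and 30.1% to 87.5% without 1 library. Of the 7 genes whose balance changed, the count was 0 at a pseudocount of 0.1 or at an adjusted p under 0.01 (72 and 80 at an unadjusted p under 0.05), 16 at a pseudocount of 5, 42 with the slope and 0 to 13 without 1 library. The difference in genes detected, -342 at 2 RPM, was -121 at 1 RPM, -681 at 10 RPM and -1.33 without the 40 highest TSCs, and that in the share of TSCs without a gene, -3.85 points, was -1.28 points without them. The cause of these changes was not tested. No named gene or TSC that was called, in the deposited RPM or under an alternative, had the opposite sign in the other. Of the 80 named, 67 were called in the deposited RPM and 13 were not. A feature that stayed uncalled also counts here as keeping its side of the limit. The number that kept it was 54 without the 40 highest TSCs, 60 with TMM factors and 40 with edgeR and TMM factors. It was 36 at a pseudocount of 0.1 and 78 when all libraries were thinned to the smallest. With 1 library left out it was 13 to 80 (13 without 14-15, 15-16 or 18-19 h, 16 without 19-20 h). All 67 called features lost their call without 14-15, 15-16 or 18-19 h. Depth limited levels below about 10 RPM at 14-15 h.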
